A study of Mus musculus with 24 samples.

Results

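The circadian clock genes described here are Arntl, Clock, Per1, Per2, Per3, Cry1, Nr1d1, Nr1d2, Dbp and Nfil3, 10 of the 22968 genes tested. They were taken by gene name from the array design, and they were chosen for their levels across the 6 groups of the study. Those levels are therefore given as a description, without a test. Whether the mice of a group deviated together was tested, because the deviations from a group's mean do not depend on the group means. The array held 12 probes for the 10 genes. All 10 genes passed the filter on dim probes, through 11 of their probes. The exception was a probe of a Per1 transcript that stood above background on 3 of 24 arrays.

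Gene expression was measured in pancreatic islets of male mice, with 1 single-colour Agilent array per mouse and 4 mice in each of 6 groups. The mice were of the inbred strains C57BLKs/J (BLKS) and C57BL6/J (BL6) and entered at an age of 8 weeks. In each strain they received HFD + Pio, a high-fat diet with 140 mg of the PPAR-gamma agonist pioglitazone per kg diet, HFD, the same diet without the drug, or chow. Fat supplied 42% of the energy in HFD and HFD + Pio and 18% in chow. The sample labels give 12 weeks of diet, while the series text gives 16 weeks. The labels name no transgene, and each array came from another animal. The time of day at which islets were taken is not given in the sources used here.

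In mammalian cells the proteins encoded by Arntl (BMAL1) and Clock pair and activate genes that carry E-box elements in their promoters, among them the Period, Cryptochrome and Nr1d genes. PER and CRY proteins then inhibit the pair, while NR1D1 and NR1D2 (REV-ERB alpha and beta) repress Arntl transcription, so that the transcripts rise and fall over the day with Arntl nearly opposite to the Nr1d genes. Dbp activates and Nfil3 represses genes that carry D-box elements, among them Per genes, and a clock of this kind runs in pancreatic islets, where it takes part in the timing of insulin secretion.

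The elements named above can be seen in promoters of 3 of the genes, which are shown because they carry an exact match. The sequences are the 250 bases before the start of a RefSeq transcript on GRCm38.p6, read 5′ to 3′ on the strand of the gene. Capitals mark the E-box letters CACGTG in Per1 (chr11:69098699-69098948, plus strand) and Cry1 (chr10:85185055-85185304, minus strand), and the D-box letters TTATGTAA in Per3 (chr4:151044666-151044915, minus strand).
Per1: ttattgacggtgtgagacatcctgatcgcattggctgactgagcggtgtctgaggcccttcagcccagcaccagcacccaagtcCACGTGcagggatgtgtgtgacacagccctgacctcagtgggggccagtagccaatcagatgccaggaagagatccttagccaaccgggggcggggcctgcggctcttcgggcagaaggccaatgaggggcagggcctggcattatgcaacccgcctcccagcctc
Cry1: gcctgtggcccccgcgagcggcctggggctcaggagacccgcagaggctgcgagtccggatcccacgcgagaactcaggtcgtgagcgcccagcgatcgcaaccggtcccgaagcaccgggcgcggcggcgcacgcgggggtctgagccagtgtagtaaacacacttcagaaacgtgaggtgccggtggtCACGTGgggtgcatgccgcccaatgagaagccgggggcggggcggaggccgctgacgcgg
Per3: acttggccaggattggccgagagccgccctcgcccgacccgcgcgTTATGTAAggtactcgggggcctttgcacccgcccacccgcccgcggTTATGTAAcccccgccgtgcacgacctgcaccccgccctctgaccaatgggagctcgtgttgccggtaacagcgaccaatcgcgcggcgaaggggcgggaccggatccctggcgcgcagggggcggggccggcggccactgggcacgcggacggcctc
The E-box match lay at bases -166 to -161 from the start of Per1 and at bases -60 to -55 from the start of Cry1. The D-box letters occurred at bases -205 to -198 and again at bases -158 to -151 in Per3. Both strands were searched, and neither motif overlapped the other. The table held 13 windows of 9 of the genes and none of Per2. An exact E-box stood in 6.02% of all 32851 windows of that length and an exact D-box in 0.819%. Other windows of the set held neither run of letters, which describes these windows alone. The probes of the remaining genes lie on mm9 at chromosome 5, 76641377 to 76641436 for Clock, chromosome 11, 68923364 to 68923423 for Per1, chromosome 1, 93313046 to 93313105 for Per2 and chromosome 4, 150379256 to 150379315 for Per3. Those of Cry1 and Nr1d2 lie at chromosome 10, 84594731 to 84594790, and at chromosome 14, 19037253 to 19037312. Their place in exons was not determined here.

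Levels are log2 intensities relative to the 75th percentile of the array, so that 0 equals that percentile. They cannot be set against each other between probes. Taken over the distinct probes, the percentile itself lay between 217.9 and 403.3 intensity units. The arrays lay on 4 slides: BLKS HFD + Pio shared slide 3 with BLKS HFD, and BL6 HFD shared slide 1 with BL6 chow. Slide 2 held 3 arrays each of BLKS chow and BL6 HFD + Pio. The remaining array of either group, BLKS chow mouse 3 and BL6 HFD + Pio mouse 4, was on slide 4, whose scan day differed. The strains therefore met on a slide only in different diets, and strain, slide, handling and hour of collection cannot be told apart. Nnt, a mitochondrial gene known to be mutated in BL6/J mice, ranged from 3.48 to 3.97 in BLKS and from 2.05 to 2.71 in BL6, so no array went against its strain label. Beta-cell markers averaged between 6.22 and 6.52 in every group. In whole islets, fewer cells of a type and less RNA per cell cannot be told apart.

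Arntl, the activator subunit, was lower in every mouse on a high-fat diet than in every chow mouse of its own strain. In BLKS islets its level was 0.80, 0.70, 0.42 and 0.49 on HFD + Pio, 0.52, 0.47, 0.62 and 0.20 on HFD, and 1.46, 1.51, 1.35 and 1.18 on chow. In BL6 islets it was 0.28, 0, 0.49 and 0.58 on HFD + Pio, 0.65, 0.91, 0.62 and 0.44 on HFD, and 1.16, 1.08, 1.11 and 1.05 on chow. Both high-fat groups lay below chow without overlap in either strain, while HFD + Pio and HFD overlapped in both. The difference between HFD and chow was -0.92 ± 0.13 (SE) in BLKS, a ratio of 0.528, and -0.45 ± 0.13 in BL6, a ratio of 0.733. Between HFD + Pio and chow it was -0.77 ± 0.13 in each strain. HFD + Pio minus HFD was 0.15 ± 0.13 in BLKS and -0.32 ± 0.13 in BL6. The probe lies at mm9 chromosome 7, 120457261 to 120457320, and was well above background on all 24 arrays.

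Clock, which encodes the partner of BMAL1, stayed within a narrow band. Over the 24 arrays its level ranged from 0.66 to 1.57, and the 6 group means differed by at most 0.29. The means were 0.93 ± 0.11 on HFD + Pio, 0.96 ± 0.32 on HFD and 1.02 ± 0.05 on chow in BLKS, and 1.19 ± 0.36, 1.23 ± 0.07 and 1.23 ± 0.03 for the same diets in BL6 (SD, n = 4). No diet difference of Clock exceeded 0.09 in size, and each was smaller than its SE of 0.14. The strain difference, BLKS minus BL6, lay between -0.27 and -0.20.

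**Figure D1:**
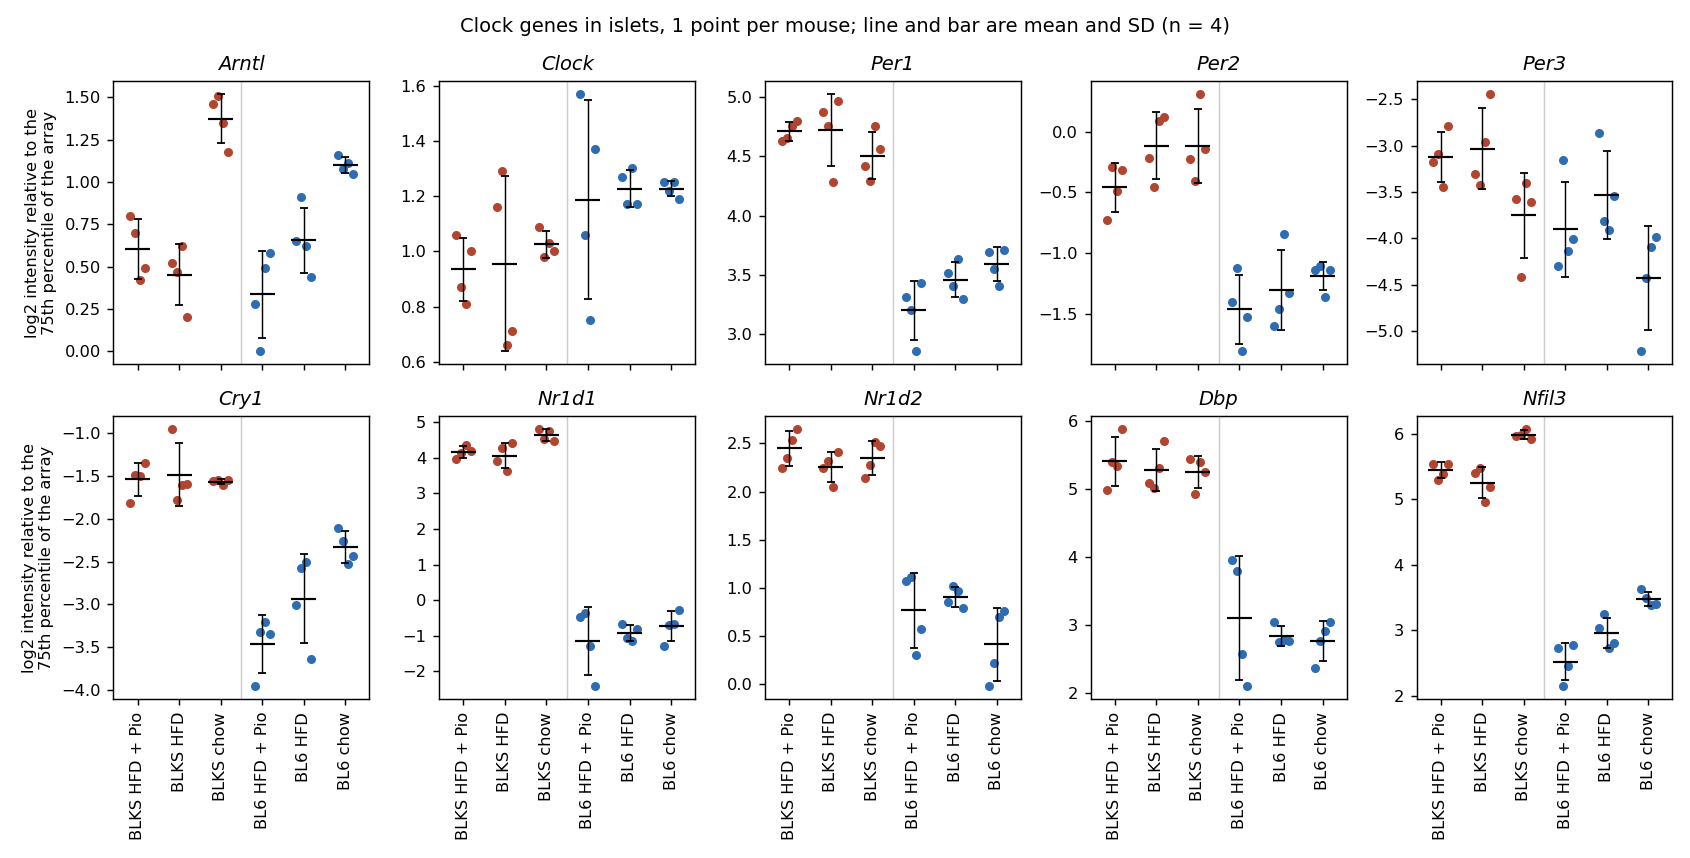
Level of each clock gene on every array, as log2 intensity relative to the 75th percentile of the array; each panel has its own axis, points are mice, and line and bar are the mean and SD of 4 mice. Arntl and Nfil3 lie lower in all high-fat mice than in the chow mice of their strain, and Nr1d1 separates the strains most widely.

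Nfil3, the repressor at D-box elements, showed the same order of diets as Arntl and in addition a wide gap between the strains. In BLKS islets its level was 5.54, 5.29, 5.39 and 5.54 on HFD + Pio, 5.40, 5.47, 4.95 and 5.19 on HFD, and 5.97, 5.98, 6.07 and 5.91 on chow. In BL6 islets it was 2.72, 2.14, 2.45 and 2.77 on HFD + Pio, 3.03, 3.24, 2.73 and 2.81 on HFD, and 3.63, 3.49, 3.39 and 3.40 on chow. All high-fat mice lay below the chow mice of their strain, and every BLKS mouse lay above every BL6 mouse. HFD minus chow was -0.73 ± 0.14 in BLKS and -0.52 ± 0.14 in BL6, and HFD + Pio minus chow was -0.54 ± 0.14 in BLKS and -0.96 ± 0.14 in BL6. HFD + Pio minus HFD was 0.19 ± 0.14 in BLKS and -0.44 ± 0.14 in BL6, with overlapping groups in both. The probe lies at mm9 chromosome 13, 53062578 to 53062637.

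Of all genes tested, 5 had their 8 high-fat arrays below the 4 chow arrays in both strains, which is 0.0218% of 22968, and Arntl and Nfil3 are among these 5. The others are Ccbl2, which encodes a kynurenine aminotransferase, a transcribed region on chromosome 3 and an unnamed probe. These were named after their values were seen. Arntl and Nfil3 were themselves chosen with these levels known, so their place among the 5 is a description and no support. The gap between the highest high-fat array and the lowest chow array was widest for Arntl and Nfil3 in BLKS, with 0.80 against 1.18 for Arntl and 5.54 against 5.91 for Nfil3. In BL6 the same pair of values was 0.91 against 1.05 for Arntl and 3.24 against 3.39 for Nfil3. For Ccbl2 it was 2.12 against 2.25 in BLKS and 1.15 against 1.31 in BL6. Within 1 strain the separation was less rare: 1.21% of genes had all high-fat arrays below chow in BLKS and 0.518% had it in BL6. Nr1d1 was a further clock gene with this order in BLKS.

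Nr1d1, which encodes the repressor REV-ERB alpha, differed more between the strains than any other of the 10 genes. In BLKS islets its level was 3.98, 4.13, 4.37 and 4.20 on HFD + Pio, 3.92, 4.28, 3.64 and 4.41 on HFD, and 4.81, 4.52, 4.77 and 4.48 on chow. In BL6 islets it was -0.49, -0.37, -1.30 and -2.43 on HFD + Pio, -0.68, -1.08, -1.16 and -0.82 on HFD, and -1.29, -0.70, -0.67 and -0.28 on chow. The lowest BLKS mouse, at 3.64, stood far above the highest BL6 mouse, at -0.28. BLKS minus BL6 was 5.32 ± 0.32 (SE) on HFD + Pio, 5.00 ± 0.32 on HFD and 5.38 ± 0.32 on chow, the last a 41.6-fold difference. In BLKS, HFD minus chow was -0.58 ± 0.32 and HFD + Pio minus chow -0.48 ± 0.32. In BL6 the diets overlapped throughout. Pioglitazone mouse 4, whose array was on another slide and scan day than the rest of its group, was the lowest of all 24 arrays. The probe lies at mm9 chromosome 11, 98630526 to 98631028 including a gap, and stood above background on every array, so that the BL6 levels are measured and not bounds.

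Nr1d2, which encodes the related repressor REV-ERB beta, was also higher in BLKS, by less. Its means were 2.45 ± 0.18 on HFD + Pio, 2.26 ± 0.15 on HFD and 2.35 ± 0.18 on chow in BLKS, and 0.77 ± 0.39, 0.91 ± 0.10 and 0.42 ± 0.38 for the same diets in BL6 (SD, n = 4). The strains did not overlap, with 2.05 as the lowest BLKS mouse and 1.11 as the highest BL6 mouse. In BL6, HFD minus chow was 0.49 ± 0.18 (SE) with all 4 HFD mice above the chow mice, whereas in BLKS it was -0.10 ± 0.18 with overlapping groups.

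Dbp, an activator at D-box elements and a commonly used output of the clock, did not separate by diet. In BLKS islets its level was 4.99, 5.40, 5.34 and 5.88 on HFD + Pio, 5.09, 5.01, 5.30 and 5.71 on HFD, and 5.44, 4.92, 5.40 and 5.25 on chow. In BL6 islets it was 3.95, 3.79, 2.58 and 2.10 on HFD + Pio, 3.05, 2.75, 2.78 and 2.77 on HFD, and 2.37, 2.76, 2.91 and 3.04 on chow. Every BLKS mouse lay above every BL6 mouse, and BL6 HFD + Pio was the most scattered group, with mice 1 and 2 above and mice 3 and 4 below all BL6 HFD mice. BLKS minus BL6 was 2.30 ± 0.30 (SE) on HFD + Pio, 2.44 ± 0.30 on HFD and 2.48 ± 0.30 on chow. The Dbp probe lies at mm9 chromosome 7, 52965322 to 52965381. Another Dbp probe, at 52965461 to 52965520, gave 1.43, 1.58 and 1.57 for these diets, so the size of the strain difference depended on the probe while its direction did not.

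Of the Period genes, which encode inhibitors of the activator pair, Per1 and Per2 separated the strains and Per3 did not. Per1 ranged from 4.28 to 4.97 over the 12 BLKS mice and from 2.85 to 3.71 over the 12 BL6 mice. BLKS minus BL6 for Per1 was 1.51 ± 0.14 (SE) on HFD + Pio, 1.26 ± 0.14 on HFD and 0.92 ± 0.14 on chow. Per2 ranged from -0.73 to 0.31 in BLKS and from -1.81 to -0.84 in BL6. The Per2 strain difference was 1.00 ± 0.18, 1.19 ± 0.18 and 1.07 ± 0.18 on the diets in the same order. Per3 ranged from -4.42 to -2.44 in BLKS and from -5.22 to -2.86 in BL6, so the strains overlapped. Per3 was a dim probe that stood above background on 22 of 24 arrays, missing 1 mouse each of BL6 HFD + Pio and BL6 chow. HFD minus chow for Per3 was 0.72 ± 0.31 in BLKS, where the groups overlapped, and 0.90 ± 0.31 in BL6, where they did not. With normexp background correction and quantile normalization these differences were 0.26 in BLKS and 0.22 in BL6.

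Cry1, which encodes a partner of the PER proteins in inhibition, differed by diet in BL6 only by description. In BL6 islets its level was -3.96, -3.32, -3.21 and -3.35 on HFD + Pio, -3.01, -2.58, -2.51 and -3.64 on HFD, and -2.11, -2.26, -2.53 and -2.43 on chow. HFD + Pio lay wholly below chow, HFD overlapped both, and HFD + Pio mouse 1 was not above background. In BLKS islets the level was -1.81, -1.49, -1.50 and -1.35 on HFD + Pio, -0.95, -1.78, -1.61 and -1.59 on HFD, and -1.56, -1.55, -1.61 and -1.55 on chow, with no separation by diet. HFD + Pio minus chow was 0.03 ± 0.21 (SE) in BLKS and -1.13 ± 0.21 in BL6. The strain difference, BLKS minus BL6, was 1.92 ± 0.21 on HFD + Pio, 1.46 ± 0.21 on HFD and 0.76 ± 0.21 on chow. With normexp and quantile normalization, HFD + Pio minus chow in BL6 was -0.48, and the strain differences were 0.98, 0.77 and 0.47 on the diets in that order.

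The counts for diet can be set against the whole table, with the adjusted p of limma's fit over all genes and a threshold of 0.05. Since the genes were chosen on these levels, nothing is read from the counts about the clock. For HFD against chow, 2 of the 10 passed in BLKS, Arntl and Nfil3, both lower, where 0.0784% of all genes passed and 0.061% were lower. Without any 1 of the 8 mice of that comparison the count was 1, since Nfil3 then did not pass, at -0.80 to -0.63. Of all genes 2 to 14 passed in those 8 fits. With the acinar list as a covariate or only those groups in the fit the count was 0, and 0 of all 22968 genes passed in either fit. Arntl, Nr1d1 and Nfil3 had mice that did not overlap, beside 5.8% of genes. In BL6 0 passed, beside 0.0435% of genes, with 5 of the 10 at an unadjusted p under 0.05 beside 5.46% of genes. Arntl, Per3, Nr1d2 and Nfil3 had mice that did not overlap, beside 4.86%. For HFD + Pio against HFD, 0 passed in BLKS beside 0.00435% and 0 in BL6 beside 0.192% of genes. At an unadjusted p under 0.05 these were 0 of the 10 in BLKS beside 4.16% of genes and 3 of the 10 in BL6 beside 10.4%. No gene of the 10 had mice that did not overlap in that comparison, beside 2.86% of genes in BLKS and 3.27% in BL6. For HFD + Pio against chow, Arntl passed in BLKS, lower, beside 0.0348% of genes and 0.0261% lower, and Arntl, Cry1 and Nfil3 passed in BL6, all lower, beside 0.279% and 0.152% lower. In BLKS the count was 0 without HFD + Pio mouse 2, 3 or 4 or chow mouse 1, 2 or 3, where 0 to 4 of all genes passed. In BL6 the count was 2 without HFD + Pio mouse 1 or any 1 chow mouse, since Cry1 then did not pass. Of all genes 22 to 105 passed in those BL6 fits. With only the groups compared in the fit both counts of the 10 were 0, beside 1 of all genes in BLKS and 3 in BL6. Arntl, Nr1d1 and Nfil3 had mice that did not overlap in BLKS, beside 6.67% of genes, and Arntl, Cry1 and Nfil3 in BL6, beside 8.71%. HFD + Pio and HFD are both set against the same chow mice, so these comparisons share samples. The median difference of the 10 for HFD minus chow was -0.03 in BLKS, where all genes had -0.02, and -0.12 in BL6, where all genes had 0.

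**Figure D2:**
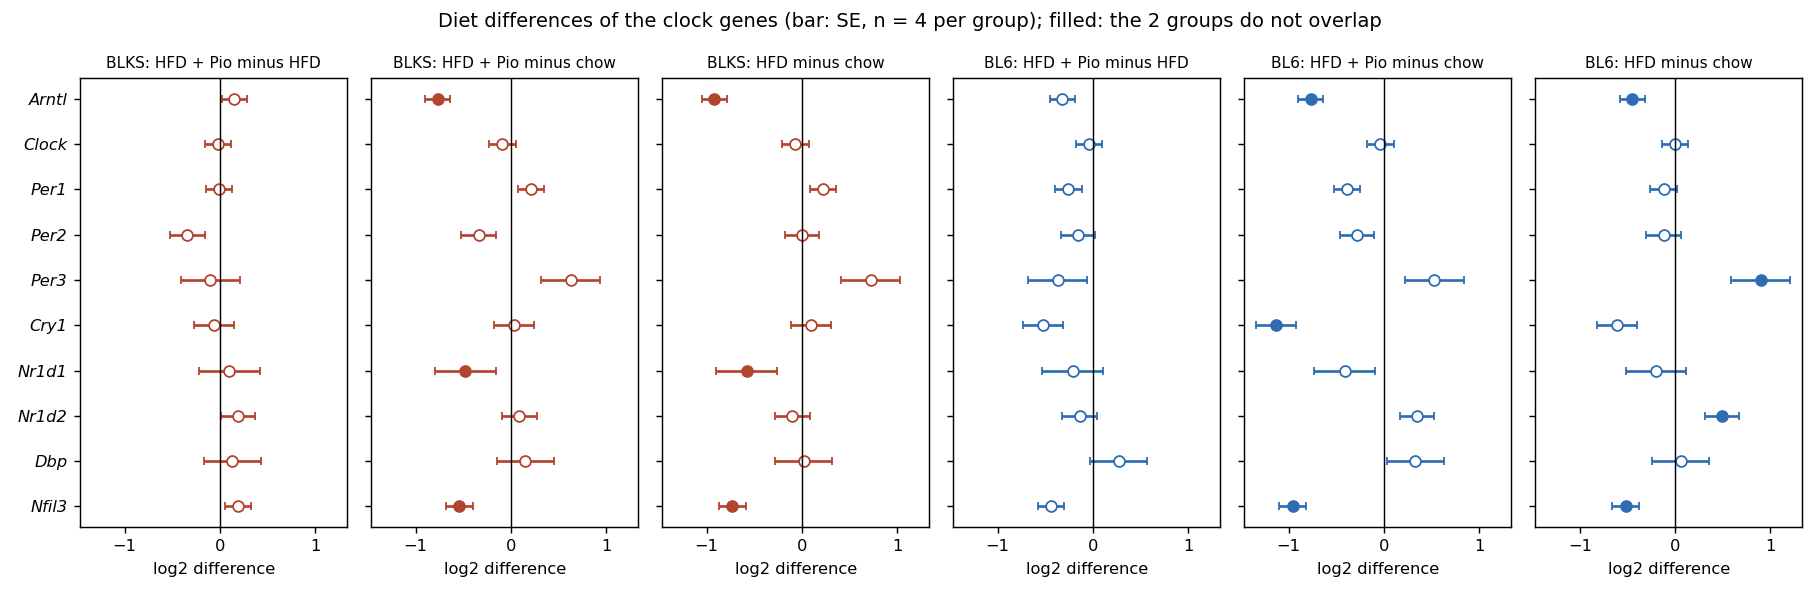
Log2 difference between diets for each clock gene within BLKS (red) and BL6 (blue), with SE, from 4 mice per group; filled points mark groups of mice that do not overlap. Arntl and Nfil3 are filled and below 0 in every comparison of a high-fat diet with chow, and no point is filled for HFD + Pio minus HFD.

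The difference between the strains in the response to HFD was -0.47 ± 0.18 (SE) for Arntl, -0.59 ± 0.25 for Nr1d2 and 0.69 ± 0.30 for Cry1, each as the BLKS change minus the BL6 change. None of the 10 genes passed the threshold for it, beside 0% of all genes. At an unadjusted p under 0.05 it was 3 of the 10, beside 8.44% of all genes. For the response to pioglitazone the same difference was 0.63 ± 0.19 for Nfil3 and 0.47 ± 0.18 for Arntl. Again 0 of the 10 passed, beside 0.00871% of genes, and 2 had an unadjusted p under 0.05, beside 7.46%. The genes were chosen with these levels known, so nothing is read from the counts for either response.

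The within-slide comparisons were HFD + Pio against HFD in BLKS and HFD against chow in BL6, so the BLKS differences of Arntl and Nfil3 from chow were measured across slides and the BL6 differences between HFD and chow within 1 slide. Arrays also differed in markers of acinar cells, the enzyme-secreting cells of the exocrine pancreas, whose part in the diet differences was tested only as a covariate. Over 10 of 10 markers the mean level ranged from 3.12 to 8.15 in BLKS HFD + Pio, from 5.42 to 8.11 in BLKS HFD and from -2.73 to 6.97 in BLKS chow. In BL6 it ranged from 5.63 to 6.86 on HFD + Pio, from 4.52 to 7.18 on HFD and from 0.11 to 7.91 on chow. All 10 were higher on HFD than on chow in both strains, none past the threshold. With this list as a covariate, HFD minus chow in BLKS was -0.90 ± 0.14 (SE) for Arntl and -0.69 ± 0.15 for Nfil3. Neither passed the threshold, and 0 of all 22968 genes did in that fit. Immediate early genes, which respond to handling and activity, averaged from 3.64 to 3.85 in BLKS HFD + Pio, from 3.71 to 3.87 in BLKS HFD and from 4.03 to 4.43 in BLKS chow, so both high-fat groups lay below chow there. In BL6 they averaged from -1.10 to 0.36, from -0.98 to -0.09 and from -0.46 to 0.49 on the diets in the same order. With that list as a covariate, HFD minus chow in BLKS was -0.69 ± 0.14 for Nfil3, which then did not pass, and -0.86 ± 0.13 for Arntl. In BL6 the macrophage markers moved with diet as well. Their mean ranged from 0.81 to 2.18 on HFD + Pio, from 0.80 to 1.34 on HFD and from 0.42 to 0.60 on chow, and for HFD + Pio minus chow 9 of 10 were higher, with a median of 0.79 and none past the threshold. Of the lymphocyte markers 10 of 10 were higher there, with a median of 1.87, and none passed. With the lymphocyte list as a covariate, HFD + Pio minus chow in BL6 was -0.77 ± 0.13 (SE) for Arntl, -1.04 ± 0.21 for Cry1 and -0.88 ± 0.12 for Nfil3. The part of macrophages was not tested.

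Between the strains, 7 of the 10 genes had all 12 BLKS mice above all 12 BL6 mice, namely Per1, Per2, Cry1, Nr1d1, Nr1d2, Dbp and Nfil3. Over all genes this held for 10.8%, and these levels were part of the choice of the genes. With the threshold of the fit, 8 of the 10 were higher in BLKS on HFD + Pio, where 45.8% of genes passed and 23% were higher. On HFD 7 were higher, where 49.9% passed and 23.3% were higher, and on chow 7 were higher, where 41.6% passed and 20.6% were higher. The gene that passed on HFD + Pio alone was Per3, whose mice overlapped between strains. Its call was lost in 5 of 11 alternatives and in 6 of 8 fits with a mouse left out. None of the 10 was lower past the threshold on any diet. The median strain difference of the 10 was 1.60 on HFD + Pio, 1.31 on HFD and 1.00 on chow, beside -0.04, -0.05 and -0.04 for all genes. Arntl and Clock, the activator pair, and Per3 were the 3 whose mice overlapped between strains over the 3 diets together. On chow alone Arntl and Clock did not overlap, with BLKS minus BL6 at 0.27 ± 0.13 (SE) for Arntl and -0.20 ± 0.14 for Clock. On HFD + Pio and HFD both overlapped, with Arntl at 0.27 ± 0.13 and -0.20 ± 0.13.

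Immediate early genes separated the strains as well: 11 of 11 were higher in BLKS past the threshold on every diet. Their mean over the list was 3.75 in BLKS against -0.67 in BL6 on HFD + Pio, 3.81 against -0.55 on HFD, and 4.17 against -0.08 on chow, with no overlap between arrays. Of 6 duct-cell markers, 4, 3 and 4 passed as higher in BLKS on HFD + Pio, HFD and chow, and the mean over the list was -0.37, -0.15 and -0.39 in BLKS against -2.12, -2.15 and -2.31 in BL6 on the diets in the same order. Of all genes, 45.8%, 49.9% and 41.6% passed on these diets, 23%, 23.3% and 20.6% as higher and the rest as lower. Beta-cell markers passed as lower in BLKS in 2, 5 and 2 of 10, and 0 passed as higher. Alpha, delta and PP cell markers passed as lower in 4, 4 and 3 of 10 and as higher in 0, 1 and 1. Macrophage markers passed as lower in 7, 6 and 4 of 10 and as higher in 1 on each diet. The part of these cells, of handling or of the hour of collection in the strain differences was not tested. In 1 fit with the immediate early list as a covariate, 4, 2 and 3 of the 10 genes passed as different between strains on HFD + Pio, HFD and chow, beside 8, 7 and 7 without it. Of all 22968 genes, 516, 524 and 472 passed in that fit on these diets, beside 10520, 11466 and 9545 without the covariate. The SE widened in that fit, for Cry1 on chow to 0.81 beside 0.21, and the list separates the strains by itself. Nr1d1 stood at 6.46 ± 1.28 (SE), 6.12 ± 1.26 and 6.48 ± 1.23 in that fit on the diets in the same order.

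On slide 2, where 3 arrays of either strain were hybridised together, BLKS chow can be set against BL6 HFD + Pio, which mixes strain with diet. This comparison was chosen after the data were seen. The difference was 5.32 for Nr1d1, 3.52 for Nfil3, 1.95 for Cry1, 1.77 for Dbp and 1.47 for Nr1d2. It was 1.30 for Per1, 1.18 for Per2 and 1.13 for Arntl, and the 3 arrays of BLKS lay above the 3 of BL6 for these 8 genes. Clock at -0.10 and Per3 at -0.01 overlapped.

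**Figure D3:**
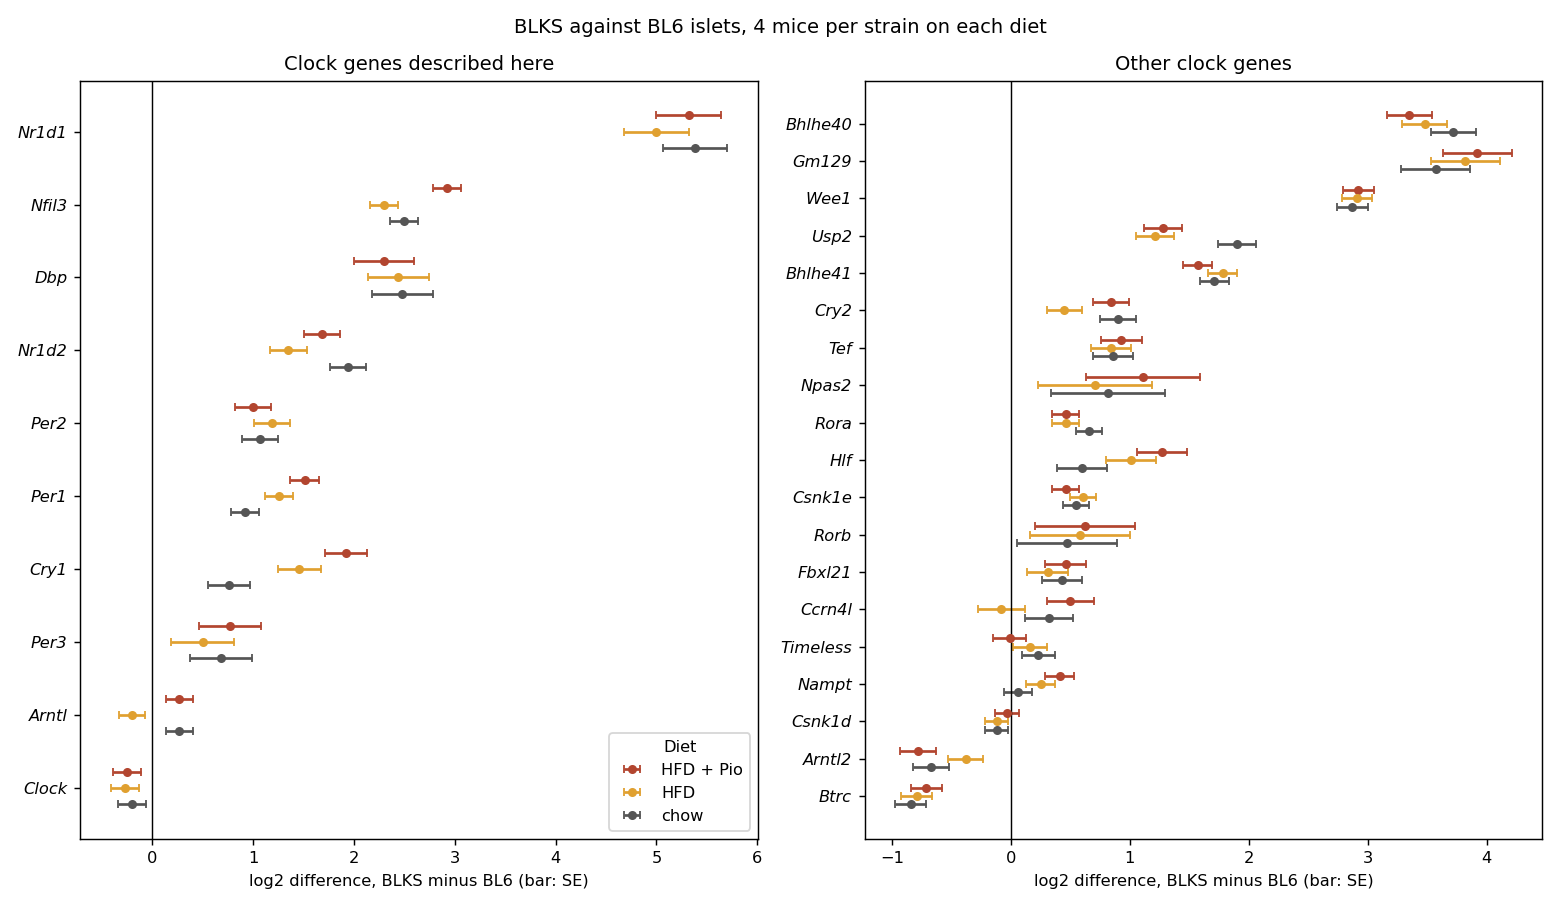
Log2 difference, BLKS minus BL6, with SE, on HFD + Pio, HFD and chow (4 mice per strain on each diet) for the clock genes described here (left) and for other clock genes (right); the 2 panels have different axes. Nr1d1 stands near 5 on every diet, while Arntl and Clock lie close to 0.

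Another 21 genes of the clock and its outputs were all measured. This list, too, was drawn up with earlier results of these data known, so its counts and adjusted p are no independent support. Past the threshold, 14 of 21 were higher and 2 lower in BLKS on HFD + Pio, 11 higher and 2 lower on HFD, and 12 higher and 2 lower on chow. Of all genes, 45.8%, 49.9% and 41.6% passed on these diets, 23%, 23.3% and 20.6% as higher and the rest as lower. In 10 of 21 all BLKS mice lay above all BL6 mice, and in 1, Btrc, all lay below, beside 10.8% and 8.61% of all genes. Bhlhe40 and Bhlhe41 encode the repressors DEC1 and DEC2, which compete for E-boxes. Bhlhe40 was higher by 3.35, 3.48 and 3.72 ± 0.19 (SE) on HFD + Pio, HFD and chow, with adjusted p = 2.3e-11, 1.2e-11 and 5.2e-12. Bhlhe41 was higher by 1.57, 1.78 and 1.71 ± 0.12. Gm129, now named Ciart, an inhibitor of the activator pair, was higher by 3.92, 3.82 and 3.57 ± 0.29 with adjusted p of at most 3.6e-09. Its probe stood above background on 3 of 4 arrays in BL6 HFD + Pio and in BL6 HFD, and with normexp and quantile normalization the differences were 2.37, 2.22 and 2.05. Wee1, a cell cycle kinase driven by E-boxes, was higher by 2.92, 2.91 and 2.87 ± 0.13, and Usp2, a rhythmic deubiquitinase, by 1.28, 1.21 and 1.90 ± 0.16. Tef and Hlf, relatives of Dbp, were higher by between 0.60 and 1.27.

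Among the remaining genes of that list, Cry2, Rora and Csnk1e were higher in BLKS on all 3 diets, by between 0.45 and 0.90. Cry2 is the paralog of Cry1, Rora activates Arntl, and Csnk1e encodes a kinase that acts on the stability of PER proteins. With the mean of its probes Rora passed on no diet, at 0.17, 0.22 and 0.07 on HFD + Pio, HFD and chow. Csnk1e was then at 1.32, 1.17 and 1.16, and Cry2 at 0.51 on chow. The Csnk1e mean includes a dim probe above background on 4 of 4 BLKS arrays on each diet, but on 1, 0 and 0 in BL6. That probe passed the filter through BLKS, so the larger Csnk1e values are no support. Fbxl21 passed on HFD + Pio and chow, and Ccrn4l (now Noct) and Nampt passed on HFD + Pio alone, at 0.50 and 0.41, where the difference between diets was not tested. Ccrn4l lost its call in 8 of 12 alternatives and in 5 of 8 fits with a mouse left out. Fbxl21 lost its call in 3 of 12 and 4 of 8 on HFD + Pio, and in 4 of 12 and 6 of 8 on chow. Arntl2, the paralog of Arntl, was lower in BLKS, by -0.78, -0.38 and -0.67 ± 0.15 (SE) on HFD + Pio, HFD and chow. Btrc, which encodes a ubiquitin ligase subunit for PER proteins, stood at -0.71, -0.79 and -0.84 on its brightest probe, and at 0.67, 0.77 and 0.45 with the mean of its probes, so its direction depends on the probe. Npas2, Rorb, Csnk1d and Timeless did not pass on any diet.

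None of the 21 passed in any comparison of diets or in the strain differences of those effects. In BLKS, Usp2 had the smallest p of the list, at -0.68 ± 0.16 (SE; limma adjusted p = 0.13) for HFD minus chow and -0.74 ± 0.16 (adjusted p = 0.15) for HFD + Pio minus chow. At an unadjusted p under 0.05, 5 of 21 differed in each of these 2 comparisons, beside 9.17% of genes for HFD minus chow and 7.24% for HFD + Pio minus chow. For HFD minus chow in BL6 it was 0 of 21, beside 5.46%.

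Mouse-to-mouse deviations of some of the genes ran together. After each group's mean was removed, Arntl ran opposite to Nr1d1 over the 24 arrays, with Pearson r = -0.64 (permutation p = 0.0063, 0.035 adjusted over the 9 pairs) and Spearman rho = -0.62 (permutation p = 0.0093, adjusted 0.033). For Dbp r was -0.64 (permutation p = 0.012, adjusted 0.035) and rho -0.63, and for Nr1d2 r was -0.54 (permutation p = 0.0098, adjusted 0.035) and rho -0.60. In these values, mice with more Arntl than their group tended to have less Nr1d1, Dbp and Nr1d2. The other 6 pairs did not pass. Arntl with Per2 gave -0.46, with Per3 -0.45, with Nfil3 0.46, with Per1 -0.31, with Cry1 0.25 and with Clock 0.10. Without BLKS HFD mouse 4 and BL6 HFD + Pio mouse 2, whose Arntl deviations lay farthest from the median, r was -0.54 for Nr1d1, -0.53 for Dbp and -0.45 for Nr1d2. None of the 9 pairs passed with the authors' values, where r for Nr1d2 was -0.29.

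**Figure D4:**
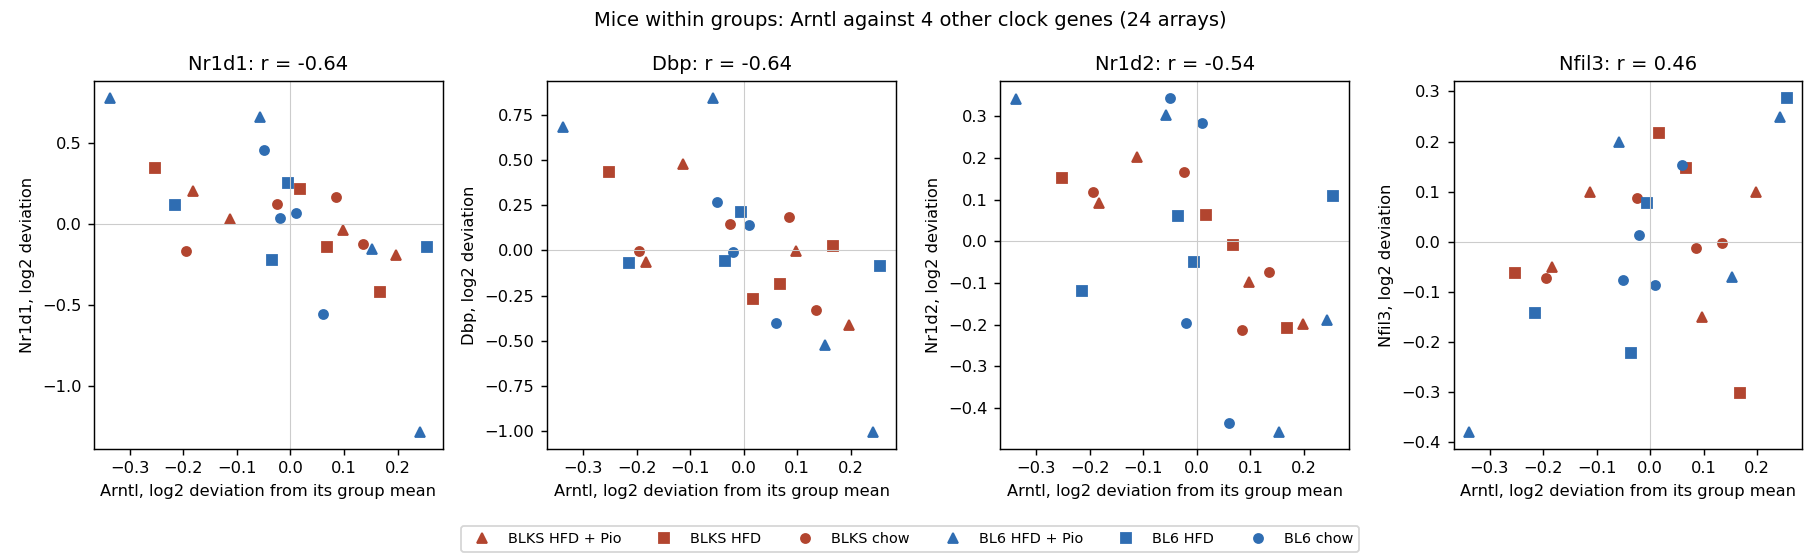
Deviation of each mouse from its group's mean, Arntl on the x axis against Nr1d1, Dbp, Nr1d2 or Nfil3 on the y axis (log2; 24 arrays; colour marks the strain and shape the diet). Nr1d1, Dbp and Nr1d2 fall as Arntl rises, with Pearson r of -0.64, -0.64 and -0.54, while Nfil3, at 0.46, did not pass.

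Within the strains, r for Nr1d1 was -0.59 in BLKS and -0.72 in BL6, for Dbp -0.60 in BLKS and -0.69 in BL6, and for Nr1d2 -0.84 in BLKS and -0.43 in BL6. The slides differed. On slides 2 and 3, r was -0.61 and -0.84 for Nr1d1, -0.67 and -0.68 for Dbp and -0.82 and -0.90 for Nr1d2. On slide 1, with BL6 HFD and BL6 chow, it was -0.38, -0.21 and 0.08 for these 3 genes, so the relation of Arntl with Nr1d2 did not hold there. Slide 4 had too few arrays. It held BL6 HFD + Pio mouse 4 and BLKS chow mouse 3, whose deviations from their groups therefore mix mouse, slide and scan day. The number of pairs past the threshold depended on single mice. It was 0 without BLKS HFD + Pio mouse 1 or 4, BLKS HFD mouse 1 or 4, BLKS chow mouse 2, BL6 HFD + Pio mouse 4 or BL6 chow mouse 1, and 1 without BL6 HFD + Pio mouse 3. Correlations were rerun with the other normalizations, filters and probe means, the authors' values and each mouse left out. They were not rerun with blocks or covariates or in the compared groups alone. Over those reruns r ranged from -0.71 to -0.54 for Nr1d1, from -0.70 to -0.55 for Dbp and from -0.64 to -0.29 for Nr1d2. Among other pairs, as a description, Nr1d1 and Dbp had a within-group r of 0.84, Nr1d2 and Dbp 0.69, and Nr1d1 and Nr1d2 0.62.

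Genes whose pattern over the 24 arrays was most like that of Arntl were ranked by Pearson r among 14041 genes with a plain gene name. This is a description, since the arrays share group, slide and scaling. The highest were Nckap5 at 0.84, Piga at 0.75, Dcdc2a at 0.74, Ttll9 at 0.72, Lingo3 at 0.70 and Fndc5 at 0.67. Within strains, r for Nckap5 was 0.90 in BLKS and 0.82 in BL6, and for the other 5 it lay between 0.54 and 0.85. The lowest were Mapk7 at -0.79, Mtap1s at -0.69, Fkbp15 and Mrto4 at -0.64, Hpgds at -0.63 and Ighmbp2 at -0.61, and Mapk7 had -0.92 in BLKS and -0.58 in BL6. For Dbp the 24 arrays split by strain, so only values within strains are given. Of its 6 most similar genes, Aloxe3 had r = 0.85 in BLKS and 0.80 in BL6, Bhlhe41 0.71 and 0.77, Dmpk 0.74 and 0.66, Ankrd28 0.72 and 0.61, Abhd11 0.58 and 0.81, and Cirbp, a cold-inducible RNA-binding protein gene, 0.33 and 0.70. Of the 6 most opposite, Ndufab1 had -0.79 in BLKS and -0.67 in BL6, and Ttc17, Ttc13, Rnf150, Crebzf and Mtfmt lay between -0.37 and -0.07 in BLKS and between -0.57 and -0.28 in BL6.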

How the data were processed

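RNA of islets from 24 mice was labelled with Cy3 and hybridised to Agilent arrays, per the labels. Per the file headers, Agilent Feature Extraction 10.7.3.1 gave each spot the deposited processed intensity, background-subtracted and detrended, with probes designed on mm9. In the table of values deposited by the authors, each value was a ratio of that intensity to the median of its array, as its values showed within 1%, and 0 of its columns were left unmapped. Control spots and spots marked as outliers were left out, which removed 55 of 55681 probes. The log2 intensity was taken minus the array's 75th percentile. Probes well above background on at least 4 of 24 arrays were kept (32750), and the brightest stood for a gene (22968 genes). Group means were estimated from the 24 arrays together by limma 3.58.1 (R 4.3.3), with 11 contrasts and Benjamini-Hochberg adjustment over all genes at 0.05. The fit was tested on simulated data. The number of arrays limits the precision.

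The members and gene lists were chosen with earlier results of these data known, so no p is printed for any of the 10 in a comparison of groups. Groups came from the titles. Correlations used values minus the group mean and 1e+05 permutations within groups, adjusted over 9 pairs. Named were all 10 genes, the genes of a list of 21 other clock genes past the threshold in any contrast or among its 6 smallest p, and the 6 highest and 6 lowest correlations with Arntl and Dbp. Single results of some listed genes are not reported here, and the counts include them. Marker lists of islet, acinar, duct, immune, endothelial, fibroblast and immediate early genes were used as means. Lymphocyte markers ranged from -2.83 to 3.45 over arrays and macrophage markers from 0.24 to 2.18. Endothelial markers ranged from 0.38 to 1.64, fibroblast and adipocyte markers from -2.08 to 0.64, and alpha, delta and PP cell markers from 3.79 to 5.14. The alternatives were normexp (offset 50) with quantile normalization, quantile alone, 2 other filters, the mean of probes, the authors' values, a block by slide or by mouse number, a fit of the compared groups alone, 3 list covariates and each mouse left out. Same-numbered mice come from different animals, and their numbers did not pair them: 60 pairs had a median r of 0.04, other pairs 0.03.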

Additional observations from a re-analysis of the deposited data

Results flagged for a closer look

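In 60 groups of 4 mice, 1 for each clock gene and group, 2 held a mouse far from the other 3, where chance alone would give about 1 in 20. Per2 in BL6 chow mouse 3 stood at -1.36, against -1.14 to -1.11 in the other chow mice of that strain. Dbp in BL6 HFD mouse 1 stood at 3.05, against 2.75 to 2.78 in the other 3. Both lay inside the range of the BL6 mice on other diets.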

How the results depend on the processing

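Main counts of the 10 clock genes past the threshold were 2 for HFD against chow and 1 for HFD + Pio against chow in BLKS, and 3 for HFD + Pio against chow in BL6. In BLKS these 2 counts became 1 and 0 without a filter on dim probes, with the authors' value table, with the mouse number as a replicate block and with the immediate early covariate, and 0 and 0 with the acinar covariate. In that last fit 0 of all genes passed in either comparison. For HFD + Pio against chow in BLKS the count was 0 after quantile normalization alone and 2 where normexp came first, where 1 of the 21 other clock genes passed. With only the groups compared, all 3 counts were 0, beside 0, 1 and 3 of all genes. With each mouse of a comparison left out in turn, they were 1 throughout, 0 to 1 and 2 to 3, that of the other clock genes for HFD + Pio against chow in BL6 was 0 to 1, and the number of correlations was 0 to 4, against 3. Arntl kept its sign for HFD minus chow in BLKS in all 12 settings (-0.92 to -0.81), losing its call in 2, and Nfil3 kept its own (-0.75 to -0.68), losing it in 6. No correlation passed with the authors' values, a count of 0. With the immediate early covariate, 4, 2 and 3 of the 10 and 3, 2 and 4 of the other clock genes passed between strains on HFD + Pio, HFD and chow, and 1 of the other clock genes for HFD against chow in BLKS. Of all 22968 genes, 516, 524 and 472 passed between strains and 40 for HFD against chow in BLKS with that covariate. Under it Cry1 on chow was -0.39, Arntl2 was 0.78, 1.16 and 0.83 and Btrc 0.43, 0.33 and 0.25 on HFD + Pio, HFD and chow, and Nampt on HFD + Pio was -0.10. With the mean of probes, Btrc was 0.67, 0.77 and 0.45 on the diets in that order. With the replicate block, 7 against 8 of the 10 and 15 against 16 of the other clock genes passed between strains on HFD + Pio, and the counts other than these and the BLKS diet counts above stayed. Over all genes, HFD against chow had 18 calls in BLKS (0 to 66 over the alternatives, mice left out included) and 10 in BL6 (0 to 18). HFD + Pio against chow had 8 in BLKS (0 to 32) and 64 in BL6 (3 to 465), and HFD + Pio against HFD had 1 in BLKS (1 to 52) and 44 in BL6 (0 to 68). BLKS against BL6 had 10520 on HFD + Pio (516 to 11185), 11466 on HFD (524 to 12361) and 9545 on chow (472 to 11035), and the strain differences in the HFD and pioglitazone effects had 0 (0 to 11) and 2 (0 to 22). Slide as a random block had a consensus correlation of -0.01. The cause of these changes was not tested, and dim probes (Per3, Cry1 in BL6) limit what their values show.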
